A study of Mus musculus with 4 samples.

Results

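The thrombospondins are a family of secreted glycoproteins of the extracellular matrix, and CD47 and CD36 are their best known receptors on endothelial cells. Described here are 8 genes, namely the 5 thrombospondin genes (*Thbs1*, *Thbs2*, *Thbs3*, *Thbs4* and *Comp*, which encodes thrombospondin-5) and the 3 genes *Cd47*, *Cd36* and *Sirpa*, the last of which encodes the counter-receptor of CD47. They were chosen by name, through their Ensembl gene IDs, from the 55385 IDs of the gene table, with earlier results of these data known. All 8 passed the filter on low values that left 19479 genes for testing. RNA was measured in lymphatic endothelial cells (LECs) that were sorted as PDPN+ CD31+ CD45- cells from mouse embryos at E13.5, after removal of inner organs, tail, limbs and most of the head. The 2 groups, of 2 libraries each, were compared to ask how gene expression in LECs differs without *Osr1*, a transcription factor of the connective tissue around the lymphatic vessels. The first group carries the GCE allele, a knock-in at the *Osr1* locus, on both chromosomes and is labelled a knockout. The second, *Osr1* controls, is labelled wild type in the deposited record, while the study describes its controls as embryos with no or with 1 GCE allele. The cells of 8 to 10 embryos were pooled for a library, so the spread between libraries is a spread between pools, and how many embryos of each genotype went into a control pool is not given in the sources used here.

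*Osr1* itself was higher in both libraries with the *Osr1* GCE/GCE label (GCE/GCE-labelled libraries below), with 168 and 303 normalized counts, against 32.8 and 30.4 in *Osr1* controls (log2 fold change 2.80, adjusted p = 0.0262 in limma). This goes against a label of knockout if the counts are read as functional transcript, and reads from the remaining parts of the targeted locus cannot be told apart from such transcript in a count per gene. Group names are therefore used below as labels. The libraries held 31586765 to 53438492 reads in genes. The gene with the fewest reads of the 8, *Comp*, had 122 and 125 reads in the GCE/GCE-labelled libraries and 170 and 71 in controls, and its counting error is not negligible. *Pecam1*, which encodes the sort marker CD31, was high in all 4 libraries (28393 and 25400 normalized counts in the GCE/GCE-labelled libraries, 23596 and 22279 in controls), and *Pdpn*, the other sort marker, rose (log2 fold change 0.61, adjusted p = 0.0329, limma).

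Thrombospondin-1 and thrombospondin-2 form trimers that carry type 1 repeats, through which they bind CD36 and restrain the growth of blood vessels, and thrombospondin-1 also activates latent TGF-beta. Thrombospondin-3, thrombospondin-4 and COMP form pentamers without these repeats and belong to the matrix of tendon, muscle and cartilage. CD47 binds the C-terminal domain of thrombospondin-1, which restrains nitric oxide and cGMP signalling in endothelial cells, and it also binds SIRPA on phagocytes as a signal against engulfment, whereas CD36 is a scavenger receptor that takes up long-chain fatty acids as well.

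To show the sequence upstream of genes on both sides of the comparison, the 250 bases before the RefSeq transcription start are printed for *Cd47*, which was higher in the GCE/GCE-labelled libraries, and for *Thbs2*, *Thbs3* and *Thbs4*, which had lower values there. They were taken from the RefSeq promoter table for GRCm38.p6, in which 5 of the 8 genes were found, *Cd47* with 2 overlapping entries of which the first is shown. The RefSeq starts of *Cd47* and *Cd36* lie inside the genes as GENCODE annotates them. Each is written 5′ to 3′ on the gene's strand, and capitals mark matches on either strand to 1 of 7 short motifs searched, namely the TATA box (TATAAA), the GC box (GGGCGG), the CCAAT box (CCAAT), the E-box (CACGTG), the AP-1 site (TGACTCA), the ETS core (CCGGAA) and the GATA site (AGATAA).
*Cd47*, chr16:49855404-49855653, plus strand: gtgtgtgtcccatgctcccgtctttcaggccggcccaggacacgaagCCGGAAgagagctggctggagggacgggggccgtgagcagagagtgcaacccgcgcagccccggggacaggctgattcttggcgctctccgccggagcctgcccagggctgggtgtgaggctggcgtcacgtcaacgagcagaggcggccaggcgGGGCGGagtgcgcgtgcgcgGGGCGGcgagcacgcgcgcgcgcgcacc
*Thbs2*, chr17:14694263-14694512, minus strand: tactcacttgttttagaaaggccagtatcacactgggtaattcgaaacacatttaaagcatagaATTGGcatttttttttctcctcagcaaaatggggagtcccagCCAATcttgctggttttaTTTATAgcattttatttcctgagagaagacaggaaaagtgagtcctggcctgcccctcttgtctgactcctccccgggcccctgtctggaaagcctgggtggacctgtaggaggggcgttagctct
*Thbs3*, chr3:89214930-89215179, plus strand: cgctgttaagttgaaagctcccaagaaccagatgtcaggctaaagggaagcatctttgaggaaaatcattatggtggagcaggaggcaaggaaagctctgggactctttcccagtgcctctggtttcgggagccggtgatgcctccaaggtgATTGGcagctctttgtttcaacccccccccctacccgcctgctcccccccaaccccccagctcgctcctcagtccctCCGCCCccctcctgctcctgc
*Thbs4*, chr13:92794819-92795068, minus strand: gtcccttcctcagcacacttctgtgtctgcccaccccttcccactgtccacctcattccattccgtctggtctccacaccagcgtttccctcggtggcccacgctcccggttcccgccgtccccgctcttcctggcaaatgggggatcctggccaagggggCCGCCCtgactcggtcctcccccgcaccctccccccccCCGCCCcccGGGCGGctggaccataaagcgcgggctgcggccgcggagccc

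The *Cd47* stretch is 73.2% G or C and holds 2 GC boxes and 1 ETS core. The *Thbs4* stretch is 70.8% G or C and holds 3 GC boxes, on both strands. The *Thbs3* stretch (58.8% G or C) holds 1 GC box and 1 CCAAT box, and the *Thbs2* stretch (46.8% G or C) holds a TATA box match and 2 CCAAT boxes. The TATA box match of *Thbs2* is on the opposite strand, 126 to 121 bases before the start, and is a match of letters only. The stretch before *Cd36* (43.2% G or C, chr5:17835897-17836146, minus strand, not printed) holds 2 GC boxes and 1 CCAAT box. These motifs are common. Among 32851 promoters of the same length the GC box is found in 32.7%, the CCAAT box in 33.8%, the TATA box in 12.4%, the ETS core in 12.03%, the GATA site in 9.99%, the E-box in 6.02% and the AP-1 site in 4.46%, and the median promoter is 52.4% G or C. None of the motifs searched is held by all 5 stretches. *Cd47* and *Thbs4*, whose values lay in opposite directions, both hold GC boxes.

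Of the 8 genes, 1 rose and 2 fell in the GCE/GCE-labelled libraries, and 5 did not pass the test. To be called, a gene needed a log2 fold change of 0.3 or more in either direction, a limma p that stayed under 0.05 after Benjamini-Hochberg adjustment over all 19479 genes and a mean above 1 TPM (reads per gene corrected for exon length and scaled to the same total in every library), which 2.89% of all genes tested met, 1.13% higher and 1.75% lower. Normalized counts of the 2 groups did not overlap for 7 of the 8 genes, all except *Sirpa*, and for 53.6% of all genes tested. At an unadjusted p under 0.05 stood 6 of the 8 genes and 21.4% of all genes. The gene that rose was *Cd47*, and those that fell were *Thbs1* and *Thbs3*. The median log2 fold change was -0.58 over the 5 thrombospondin genes, against -0.02 over all genes tested. As the genes were chosen with earlier results of these data known, neither the shares nor the median is a result about the family.

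**Figure D1:**
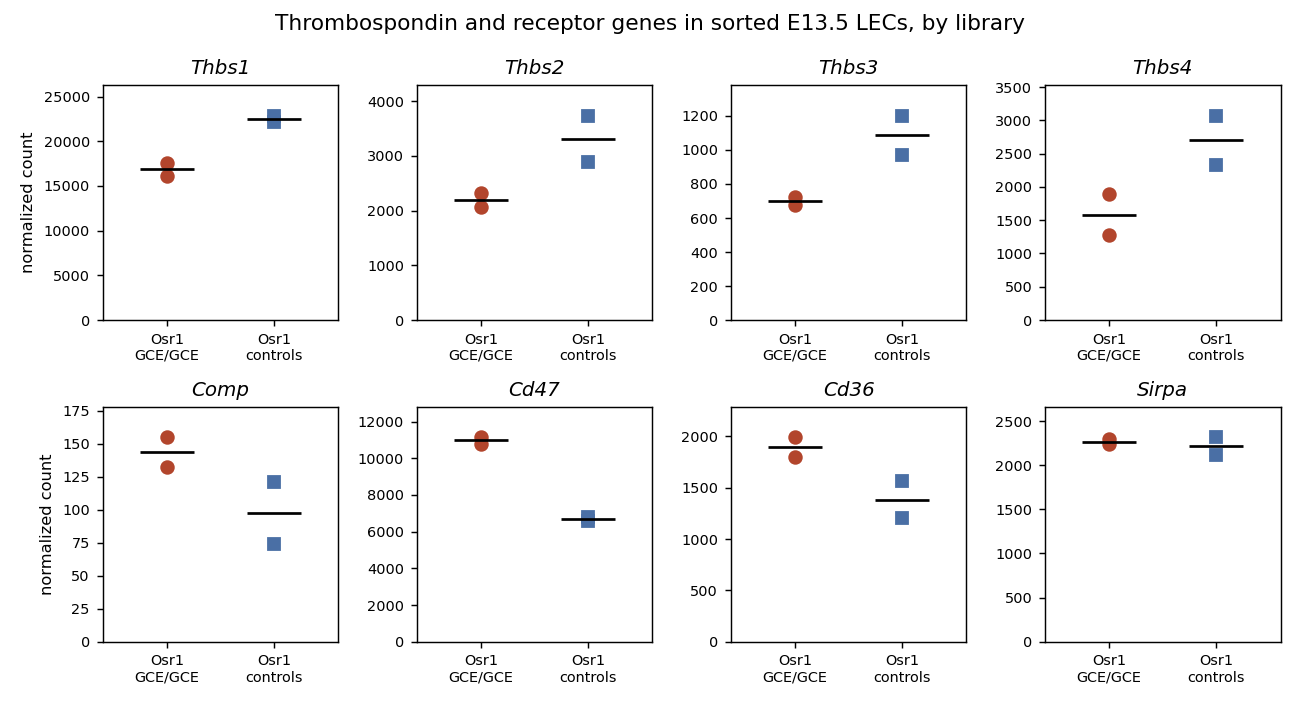
Normalized counts of the 8 genes, 1 panel per gene with its own axis from 0, in the 2 GCE/GCE-labelled libraries (circles, left) and the 2 *Osr1* controls (squares, right), with the mean of each group as a line. *Thbs1* to *Thbs4* lie lower, *Comp*, *Cd47* and *Cd36* lie higher, and *Sirpa* overlaps.

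The ligand with the highest level was *Thbs1* (ENSMUSG00000040152.8, chr2:118111876-118127133, plus strand, mm10), the gene of thrombospondin-1. It had 17624 and 16112 normalized counts in the GCE/GCE-labelled libraries, against 22152 and 22872 in controls. Both control libraries lay above both others, and the replicates of a group differed less than the groups did. *Thbs1* fell by 0.42 on the log2 scale (standard error 0.09, 95% interval -0.62 to -0.22, adjusted p = 0.0467, limma), to 0.749 of the control mean. Its adjusted p lay just under the threshold, and the call was lost whichever library was left out, at an adjusted p of 0.129 without GCE/GCE-labelled replicate 1, 0.107 without GCE/GCE-labelled replicate 2, 0.0898 without control replicate 1 and 0.107 without control replicate 2, while the fold change stayed between -0.48 and -0.35. A lincRNA on the other strand, *Gm29233*, shares 208 bases with the exons of *Thbs1* and had a mean of 9.17 normalized counts, under the filter on low values.

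*Thbs2* (ENSMUSG00000023885.9, chr17:14665500-14694235, minus strand) encodes the second trimeric thrombospondin, which also shapes collagen fibrils. It had 2075 and 2329 normalized counts in the GCE/GCE-labelled libraries, against 3736 and 2892 in controls. The groups did not overlap, but the 2 control libraries lay further apart than the 2 others. The log2 fold change was -0.58 (standard error 0.13, 95% interval -0.89 to -0.27, adjusted p = 0.0628, limma), which missed the threshold. Without control replicate 2 it was -0.77 and passed (adjusted p = 0.00331), and without control replicate 1 it was -0.40 and did not (adjusted p = 0.0770).

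Among the pentameric thrombospondins, *Thbs3* (ENSMUSG00000028047.11, chr3:89215180-89226837, plus strand) had 679 and 721 normalized counts in the GCE/GCE-labelled libraries and 1202 and 972 in controls. The lowest control library lay well above both others. *Thbs3* fell by 0.63 on the log2 scale (standard error 0.13, 95% interval -0.93 to -0.32, adjusted p = 0.0486, limma). The call remained without control replicate 2 (-0.78, adjusted p = 0.00469) and was lost without control replicate 1 (-0.47, adjusted p = 0.0652), without GCE/GCE-labelled replicate 1 (adjusted p = 0.261) and without its replicate 2 (adjusted p = 0.111). The exons of *Thbs3* share 318 bases, 6.59% of their length, with *Mtx1*, which encodes a mitochondrial import protein and lies on the other strand. The kit did not mark strand, so reads from that stretch cannot be told apart and the value of *Thbs3* is less certain than the others. *Mtx1* had 1272 and 1290 normalized counts in the GCE/GCE-labelled libraries, against 1271 and 1354 in controls.

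*Thbs4* (ENSMUSG00000021702.7, chr13:92751590-92794818, minus strand), whose protein is abundant in tendon, had 1276 and 1888 normalized counts in the GCE/GCE-labelled libraries, against 3073 and 2335 in controls. The groups did not overlap, and in both of them the 2 libraries differed widely. It had the lowest fold change of the 8 genes (log2 -0.79, standard error 0.23, 95% interval -1.37 to -0.21), but with an adjusted p of 0.140 in limma it did not pass. Without GCE/GCE-labelled replicate 2 the fold change was -1.07 and passed (adjusted p = 0.0379), and without its replicate 1 it was -0.50 (adjusted p = 0.322).

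*Comp* (ENSMUSG00000031849.9, chr8:70373558-70382066, plus strand), a matrix gene of cartilage and tendon, was the least abundant of the 8 genes and was the only thrombospondin gene with a positive fold change. It had 132 and 155 normalized counts in the GCE/GCE-labelled libraries and 121 and 74.3 in controls, so that control replicate 1 lay close under the lower of the others. The log2 fold change was 0.59 (standard error 0.28, 95% interval -0.04 to 1.22, adjusted p = 0.262, limma), and it passed under none of the 15 alternative settings run. It ranged from 0.24 without control replicate 2 to 0.94 without control replicate 1.

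**Figure D2:**
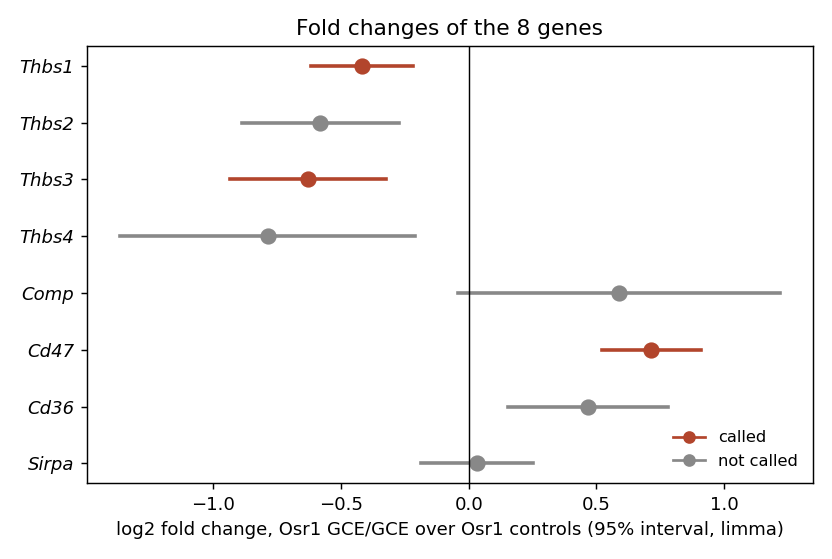
Log2 fold change of each of the 8 genes, *Osr1* GCE/GCE over *Osr1* controls, from limma over 4 libraries, with bars for the 95% interval (called genes in red, others in grey). The intervals of *Thbs1* to *Thbs4* lie below 0, those of *Cd47* and *Cd36* above 0, and those of *Comp* and *Sirpa* include 0.

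*Cd47* (ENSMUSG00000055447.19, chr16:49800533-49915010, plus strand), the receptor gene, had 10795 and 11137 normalized counts in the GCE/GCE-labelled libraries, against 6574 and 6781 in controls. The replicates lay close together in both groups, and the gap between groups was many times their spread. *Cd47* rose 1.64-fold (log2 fold change 0.72, standard error 0.08, 95% interval 0.52 to 0.91, adjusted p = 0.0276, limma). Of all genes tested 3.36% rose by that much or more, a share that leaves out genes that fell. The call remained whichever library was left out (log2 fold change 0.69 to 0.74, adjusted p 0.00486 to 0.0470) and held under 14 of the 15 alternatives. It was lost in limma without its trend and robust options (adjusted p = 0.211), a setting under which no gene of the table was called.

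*Cd36* (ENSMUSG00000002944.15, chr5:17781690-17888801, minus strand), which encodes the scavenger receptor for the type 1 repeats and for fatty acids, had 1803 and 1991 normalized counts in the GCE/GCE-labelled libraries, against 1561 and 1205 in controls. The groups did not overlap, though the spread within controls exceeded the gap between the nearest libraries of the 2 groups. The log2 fold change of 0.47 (standard error 0.14, 95% interval 0.15 to 0.78) did not pass in limma (adjusted p = 0.105). Without control replicate 1 it was 0.65 and passed (adjusted p = 0.00926), and without control replicate 2 it was 0.28 (adjusted p = 0.182).

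*Sirpa* (ENSMUSG00000037902.18, chr2:129592835-129632228, plus strand), the counter-receptor gene of CD47, had 2295 and 2235 normalized counts in the GCE/GCE-labelled libraries and 2114 and 2315 in controls. The values of the groups interleaved. The log2 fold change was 0.03 (standard error 0.10, adjusted p = 0.878, limma), and its 95% interval of -0.18 to 0.25 leaves room for a modest change either way.

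**Figure D3:**
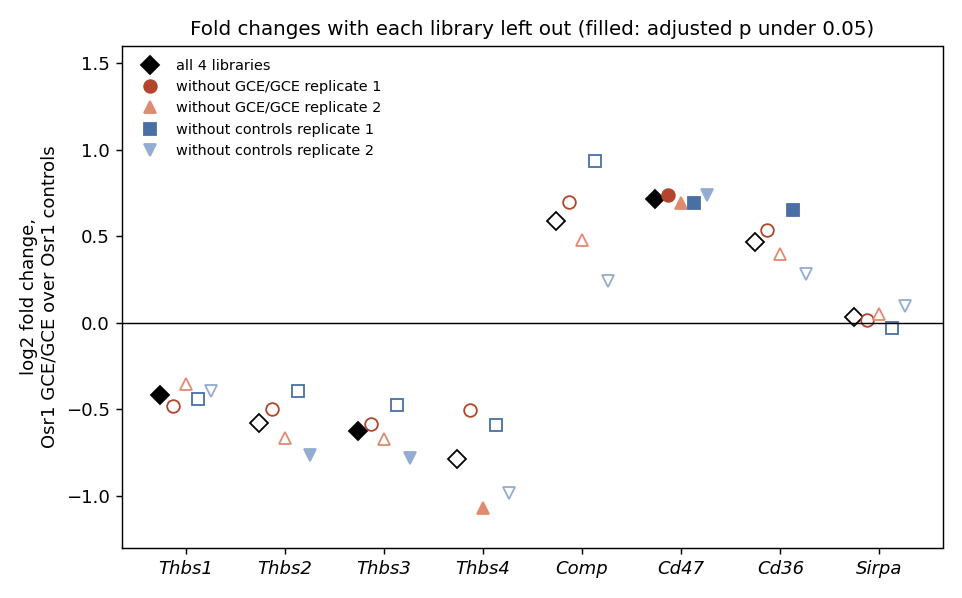
Log2 fold change of each of the 8 genes, *Osr1* GCE/GCE over *Osr1* controls, with all 4 libraries (diamonds) and with each library left out in turn (other symbols), filled where the limma adjusted p is under 0.05. Only *Cd47* is filled throughout, with values from 0.69 to 0.74, while *Thbs1* is filled only with all 4 libraries.

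To compare levels between genes, normalized counts were divided by exon length and expressed as TPM. In the GCE/GCE-labelled libraries the order was *Thbs1* (273 and 251 TPM), *Cd47* (162 and 168), *Cd36* (47.2 and 52.4), *Thbs4* (36.5 and 54.3), *Sirpa* (43.9 and 43.0), *Thbs2* (27.9 and 31.4), *Thbs3* (13.2 and 14.1) and *Comp* (4.20 and 4.93). In controls the order was *Thbs1* (358 and 379 TPM), *Cd47* (103 and 109), *Thbs4* (91.7 and 71.4), *Thbs2* (52.4 and 41.6), *Sirpa* (42.3 and 47.4), *Cd36* (42.7 and 33.8), *Thbs3* (24.5 and 20.3) and *Comp* (4.01 and 2.52). The ligand gene *Thbs1* and the receptor gene *Cd47* thus had the highest levels in all 4 libraries (*Thbs1* 262 ± 15.5 TPM in the GCE/GCE-labelled libraries and 369 ± 14.8 in controls, *Cd47* 165 ± 4.31 and 106 ± 4.16, mean ± SD, n = 2 each), and *Thbs3* and *Comp* the lowest. Between them the order differed by group. Among neighbours, the ranges of *Cd36* and *Thbs4* and of *Thbs4* and *Sirpa* overlapped in the GCE/GCE-labelled libraries, and those of *Thbs2* and *Sirpa* and of *Sirpa* and *Cd36* overlapped in controls, so these neighbours do not differ beyond their spread. By mean TPM over the 4 libraries *Thbs1* ranked 398 and *Cd47* 1187 of 55144 genes with a length.

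Summed over the 5 thrombospondin genes, the level was 355 and 356 TPM in the GCE/GCE-labelled libraries, against 531 and 515 TPM in controls. The replicates of a group thus differed little in the sum even where single genes differed widely. *Thbs1* held most of it, with 76.9% and 70.5% in the GCE/GCE-labelled libraries and 67.5% and 73.6% in controls. The share of *Thbs4* was 10.3% and 15.3%, against 17.3% and 13.9% in controls, and that of *Comp* 1.18% and 1.39%, against 0.755% and 0.490%. Only the shares of *Comp* did not overlap between the groups among these 3 genes, and with 2 libraries against 2 no exact permutation test of a share can give a two-sided p below 0.333.

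**Figure D4:**
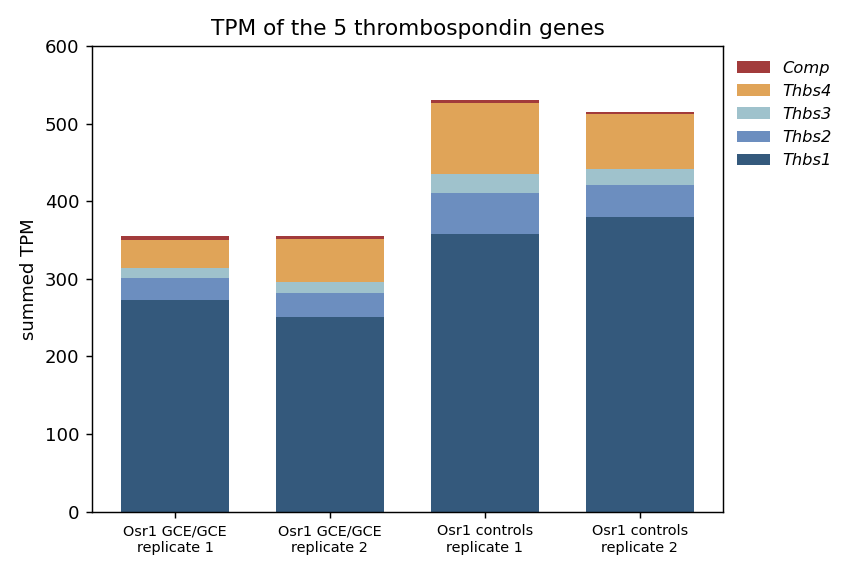
TPM of the 5 thrombospondin genes stacked in each library, the 2 GCE/GCE-labelled libraries on the left and the 2 *Osr1* controls on the right. The stacks reach 355 and 356 TPM on the left and 531 and 515 TPM on the right, and *Thbs1* makes up most of each.

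The balance of receptor to ligand within a library does not depend on how libraries are scaled. The group difference of each ratio follows from the fold changes of its genes given above and is no separate result. The TPM ratio of *Cd47* to *Thbs1* was 0.593 and 0.669 in the GCE/GCE-labelled libraries, against 0.287 and 0.287 in controls, a difference of 1.13 on the log2 scale. *Cd47* to *Sirpa* gave 3.68 and 3.90, against 2.43 and 2.29 in controls (log2 difference 0.68), and *Cd36* to *Thbs1* gave 0.173 and 0.209, against 0.119 and 0.0891 in controls (log2 difference 0.88). For each of these 3 ratios both GCE/GCE-labelled libraries lay above both controls, with an exact two-sided permutation p of 0.333, the smallest that this design allows. The other ratios computed overlapped between the groups. They were *Thbs2* to *Thbs1* (log2 difference -0.16) and *Cd36* to *Cd47* (-0.25), each with an exact two-sided permutation p of 0.667.

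In sorted bulk cells, fewer cells of a type and less RNA per cell cannot be told apart, so the levels were set beside summed markers of the cell types that such a sort could hold. The summed TPM of 10 LEC markers was 3758 and 3608 in the GCE/GCE-labelled libraries, against 2087 and 2804 in controls, and 5 of the 9 tested rose, namely *Flt4*, *Pdpn*, *Mmrn1*, *Nrp2* and *Maf*. Markers of connective tissue fibroblasts summed to 1298 and 1511 TPM, against 2558 and 2092 in controls, and 3 of 10 fell (*Crabp1*, *Col1a1* and *Twist2*). Tendon markers summed to 383 and 538 TPM, against 874 and 798 in controls, with 4 of 8 lower (*Tnmd*, *Fmod*, *Tnn* and *Col12a1*), and skeletal muscle markers to 135 and 145 TPM, against 269 and 294 in controls, with 6 of 10 lower (*Myog*, *Acta1*, *Actc1*, *Myh3*, *Myl1* and *Des*). The tendon list includes *Egr1*, for which the study gives a high mean level in these sorted LECs. The tendon sum and its order over the libraries therefore do not stand for tendon cells alone. Mural cell markers summed to 245 and 252 TPM, against 643 and 353 in controls, with 2 of 10 lower (*Acta2* and *Tagln*). The exons of *Tagln* share 1241 bases, 62.4% of their length, with a tested gene on the other strand, so its value is uncertain. The marker calls too turned on single libraries. The number of all genes called moved widely in the same settings, so the counts that follow are not a result about a list. Without GCE/GCE-labelled replicate 1 they numbered 0 for LEC, fibroblast, tendon and skeletal muscle markers and 1 for mural markers, and without its replicate 2 they numbered 1, 1, 2, 3 and 2 in the same order of lists. Without control replicate 2, 9 of 9 LEC markers were higher and 8 of 10 fibroblast markers and 8 of 10 mural markers were lower, and without control replicate 1 only 1 fibroblast marker and 3 mural markers were. No marker of any of these lists was at 0 in all libraries, and *Col1a1* is counted again below among the matrix partners of thrombospondins.

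Fewer genes were called in the other marker lists. Blood endothelial markers summed to 613 and 544 TPM in the GCE/GCE-labelled libraries, against 807 and 578 in controls, with 1 of 10 lower (*Gja5*), and macrophage markers to 223 and 229 TPM, against 202 and 204, with 1 of 10 higher (*Mrc1*). Most of the macrophage list went the other way, with 3 positive and 7 negative fold changes and a median of -0.18 on the log2 scale. Cartilage markers, of interest for *Comp*, summed to 258 and 270 TPM, against 488 and 285 in controls, and platelet markers, of interest for *Cd36* and *Thbs1*, which platelets also carry, to 151 and 115 TPM, against 114 and 42.2 in controls. None of the 10 cartilage and 7 platelet markers tested was called in limma, with 1 and 0 at an unadjusted p under 0.05, while DESeq2 called 2 cartilage markers lower and edgeR none in either list. Neural markers summed to 112 and 143 TPM, against 213 and 168 in controls, and erythroid markers to 2458 and 1436 TPM, against 2580 and 1720, while 5 of 6 adipocyte markers were under the filter on low values. None of the 8 neural, 7 erythroid and 1 adipocyte markers tested was called in limma or edgeR, with 5, 0 and 0 at an unadjusted p under 0.05 in limma, and DESeq2 called 1 neural marker lower. Single libraries decided these counts as well, in settings in which the number of all genes called also moved widely. Without control replicate 1, the setting in which *Cd36* passed, 7 of 7 platelet markers and 1 cartilage marker were higher. Without control replicate 2, 7 of 10 cartilage markers, 7 of 10 blood endothelial markers and 1 neural marker were lower and 1 platelet marker was higher. The blood endothelial and macrophage lists held 0 calls each without GCE/GCE-labelled replicate 1 and without control replicate 1, and the macrophage list also without GCE/GCE-labelled replicate 2.

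The levels of the 8 genes were then set against these sums within each library. Per unit of the fibroblast marker sum, *Thbs2*, *Thbs3* and *Thbs4* differed between groups by 0.07, 0.02 and -0.14 on the log2 scale and *Thbs1* by 0.23, compared with 1.36 for *Cd47*, 1.11 for *Cd36*, 1.24 for *Comp* and 0.68 for *Sirpa*. Per unit of the LEC marker sum, *Cd47* differed by 0.03, *Comp* by -0.09 and *Cd36* by -0.22, each with overlap between the groups, compared with -1.10 for *Thbs1*, -1.26 for *Thbs2*, -1.31 for *Thbs3*, -1.47 for *Thbs4* and -0.65 for *Sirpa*. Dividing by a marker sum moves the group difference of every gene by the same amount on the log2 scale. The 4 thrombospondin genes with lower values differed less between the groups per unit of the fibroblast marker sum. *Cd47*, *Cd36* and *Comp* differed less per unit of the LEC marker sum. Both follow from the directions of the genes and sums given above and are no separate result. All of these sums are TPM of the same libraries, and the LEC list includes *Pdpn*, a marker of the sort. *Thbs2*, *Thbs3* and *Thbs4* also ranked the 4 libraries in the same order as the fibroblast, tendon, cartilage, mural and neural sums, lowest in GCE/GCE-labelled replicate 1 and highest in control replicate 1, an order shared by 9.30% of all genes tested. The part of cell composition in the changes of the 8 genes was not tested.

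**Figure D5:**
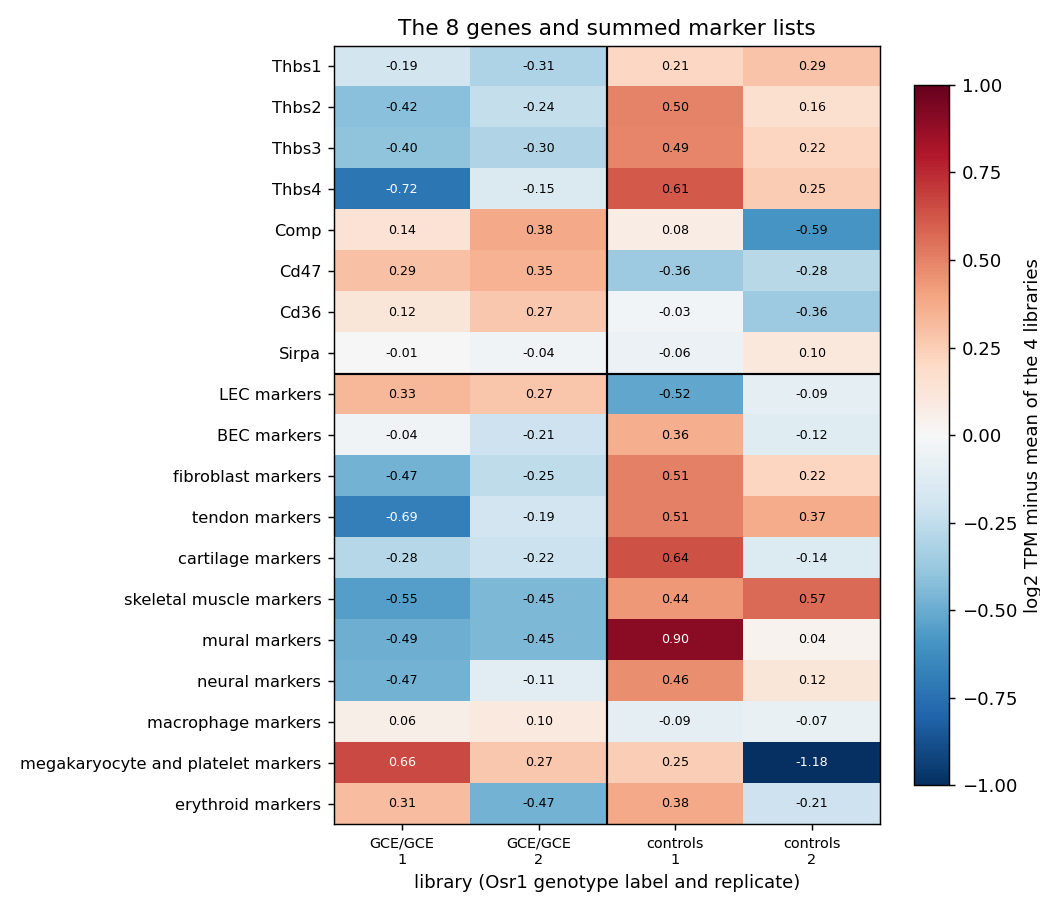
Log2 TPM of the 8 genes (top) and of summed marker lists (bottom) in each library, as the difference from the mean of the 4 libraries (colour and printed value). *Thbs1* to *Thbs4* and the fibroblast, tendon, skeletal muscle and mural sums are lower in the 2 GCE/GCE-labelled libraries (left), and *Cd47* and the LEC sum are higher there.

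Genes that work with the thrombospondins and their receptors were described from 8 lists, which held 151 tested genes other than the 8. Of these 17 were called, 9 higher and 8 lower, a share of 11.3% beside the 2.89% of all genes tested. The lists were chosen with earlier results of these data known, so the higher share is not a result about these pathways. Among 22 genes listed as other cell surface receptors of thrombospondins, 3 rose and 1 fell, with a median log2 fold change of -0.12. The list also held *Kdr*, a VEGF receptor gene. *Kdr*, which encodes VEGF receptor-2, had 55918 and 53227 normalized counts in the GCE/GCE-labelled libraries and 38295 and 36270 in controls (log2 fold change 0.55, adjusted p = 0.0293, limma). The integrin subunit genes *Itga9* (0.57, adjusted p = 0.0329) and *Itga6* (0.48, adjusted p = 0.0333) rose as well. *Lrp1*, which encodes an endocytic receptor that clears thrombospondins, fell by 0.68 on the log2 scale (adjusted p = 0.0276), with 8724 and 8780 normalized counts, against 15109 and 13011 in controls.

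Downstream of CD47 and SIRPA, 2 of 19 genes rose and none fell (median log2 fold change 0.13). *Lyn*, a Src family kinase gene, had 6185 and 6207 normalized counts in the GCE/GCE-labelled libraries and 3870 and 3888 in controls (0.68, adjusted p = 0.0276, limma), and *Gnai1*, the gene of an inhibitory G protein subunit, rose by 0.54 (adjusted p = 0.0397). Of 20 genes of nitric oxide and cGMP signalling, the pathway that thrombospondin-1 restrains through CD47, none was called in limma or edgeR, while DESeq2 called 2 higher and 2 lower. Their median log2 fold change was -0.26, 7 stood at an unadjusted p under 0.05 in limma, and the smallest adjusted p was that of *Cav1*, the caveolin-1 gene (0.38, adjusted p = 0.0853). Without control replicate 2 some of the 20 were called lower, in a setting in which more genes of the whole table were called lower too. Of 22 genes of CD36-mediated fatty acid uptake and its regulators (median -0.13), *Acsl5*, which encodes an acyl-CoA synthetase, rose (0.50, adjusted p = 0.0366). It shares 404 exon bases with *Zdhhc6* on the other strand and is uncertain for that reason. Of 7 SIRP family genes and genes listed as other ligands of SIRPA or CD47, 6 were found in the gene table. Only *Vtn* (vitronectin) was high enough to be tested, with 790 and 779 normalized counts, against 2351 and 889 in controls (-0.88, adjusted p = 0.494, limma). Its log2 fold change was -1.58 without control replicate 2 and -0.18 without control replicate 1.

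Among 16 genes of TGF-beta activation and its targets (median log2 fold change -0.31), 2 rose and 2 fell. Those that rose encode receptors, *Tgfbr2* (0.55, adjusted p = 0.0284, limma) and *Tgfbr3* (0.43, adjusted p = 0.0434). Those that fell were *Ltbp1* (-0.68, adjusted p = 0.0387), whose product holds latent TGF-beta in the matrix, and *Tgfbi* (-0.65, adjusted p = 0.0434), a TGF-beta-induced matrix gene. Of 31 other genes of proteins with type 1 repeats (median -0.44), the netrin receptor gene *Unc5b* rose (0.49, adjusted p = 0.0495), and *Ccn4* (-0.88, adjusted p = 0.0402), *Unc5c* (-0.73, adjusted p = 0.0458) and *Adgrb2* (-0.67, adjusted p = 0.0377) fell. Of 20 proteases and matrix partners (median -0.34), the collagen genes *Col1a1* (-0.71, adjusted p = 0.0343) and *Col5a1* (-0.61, adjusted p = 0.0333) fell. The receptor genes *Kdr*, *Itga9*, *Itga6* and *Unc5b*, all of which rose, on the TPM scale had higher levels than *Cd36* in every library.

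Few of these calls were stable when a library was left out. The number of all genes called also moved widely in these settings, so counts under them are not a result about these lists. All 17 were lost without GCE/GCE-labelled replicate 1 (adjusted p 0.0845 to 0.236), and *Ccn2* alone was then called in these lists. Without its replicate 2 the calls of *Itga6*, *Gnai1*, *Acsl5*, *Ltbp1*, *Tgfbr3*, *Tgfbi*, *Adgrb2*, *Unc5c* and *Col1a1* were lost (0.0502 to 0.124). Without control replicate 1 those of *Tgfbr3*, *Unc5b*, *Col1a1* and *Col5a1* were lost (0.0567 to 0.140). Without control replicate 2 those of *Itga6*, *Kdr* and *Tgfbr3* were lost, while more genes of these lists and of the whole table were then called.

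The genes whose profiles over the 4 libraries lay nearest to *Cd47* and *Thbs1* were sought among 12269 protein-coding genes, by the Euclidean distance between mean-centred log2 values. Nearest to *Cd47* were *Cd55* (distance 0.0362), which encodes a complement regulator, *Mid2* (0.0366), *Lyn* (0.0560), *Lypla1* (0.0578) and *Nr2f2* (0.0581), a transcription factor gene needed in lymphatic and venous endothelium, and all of these rose (adjusted p 0.0276 to 0.0312, limma). Among those nearest to *Thbs1* were *Vegfa* (distance 0.0304), the gene of the ligand of VEGF receptor-2, *Pdlim3* (0.0349), *Klc2* (0.0546) and *Ptpdc1* (0.0564). Of these *Vegfa* fell (log2 fold change -0.44, adjusted p = 0.0479) and *Pdlim3*, *Klc2* and *Ptpdc1* were not called. With 4 libraries many genes share such a profile, and the likeness is a description.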

How the data were processed

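The authors used an unstranded TruSeq V2 kit, STAR for alignment to mm10 and featureCounts for counts per gene, in versions that the sources used here do not give. The deposited signal values are read counts divided by DESeq2's size factors. Taking the smallest value above 0 in a library as 1 read gave whole reads for 100% of values (within 0.001), and size factors from 0.807 to 1.40. Of 55385 gene IDs, 55144 were found in GENCODE mouse release 21, which gave symbols, coordinates and exon lengths for TPM, and 241 were not. Replicates correlated at r = 0.990 (*Osr1* GCE/GCE) and 0.989 (controls) across genes and differed by more than sampling noise.

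For the comparison, log2(normalized count + 1) of the 19479 genes whose mean reached 10 was fitted in R 4.3.3 with limma 3.58.1, using lmFit and an eBayes step with its trend and robust options. Fold changes on this scale understate those of low genes, and p-values measure the spread between pools. On the recovered reads, edgeR 4.0.16 called 443 genes and DESeq2 1.42.0 called 1535, against 562 in limma. Further settings tried were a block for the replicate number, other scalings, filters, pseudocounts and thresholds, and each library left out. The fits were first tested on simulated counts. There limma called 16.2% of genes with a log2 change of 0.5 and 59.1% of those with 1, over genes of all levels tested. A gene that did not pass is therefore not shown to be unchanged. The 8 genes and all lists were chosen with earlier results of these data known. Named genes were the 8, all called genes of each pathway list (the smallest adjusted p where none was called), called genes of marker lists, and the 5 nearest profiles to *Cd47* and *Thbs1* among protein-coding genes with a mean of at least 100. One of the nearest profiles is not reported here. *Ccn2*, *Mtx1*, *Zdhhc6* and *Gm29233* were named after their values were seen. The promoter motifs were chosen after the test results were seen. Figures were drawn with matplotlib 3.10.9.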

Additional observations from a re-analysis of the deposited data

How the results depend on the processing

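Under the 15 alternative settings of its fit, *Cd47* kept its direction in all and its call in 14, and the direction of each of *Thbs1*, *Thbs2*, *Thbs3*, *Thbs4*, *Comp* and *Cd36* did not change. Of the 8 genes 3 were called, and 562 of all genes. With DESeq2 the counts were 6 and 1535, with no filter on low values 1120 of all genes, with a mean of at least 50 only 1 of the 8, at a fold threshold of 1 on the log2 scale they were 0 and 128, and at an adjusted p under 0.1 1488 of all genes. In limma without trend and robust options no gene was called (0 of the 8 and 0 of all), with 5 of the 8 and 3425 of all at an unadjusted p under 0.05. With a library left out, 1 to 3 of the 8 and 25 to 1460 of all genes were called. Same-numbered libraries did not deviate together (correlation -0.118), so the numbers were not taken as pairs. With the replicate number as a block 1 of the 8 and 125 of all genes were called, and *Thbs1* (-0.42, adjusted p = 0.109) and *Thbs3* (-0.63, adjusted p = 0.0794) did not pass under this block. The crossed pairing, added after seeing the data, called 6 and 1282, with *Thbs2* (-0.58), *Thbs4* (-0.79) and *Cd36* (0.47) among them.

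*Thbs1* also missed the threshold in limma without trend and robust options (-0.42, adjusted p = 0.240) and with a mean of at least 50 (-0.42, adjusted p = 0.0506), as did *Thbs3* (-0.63, adjusted p = 0.230 and 0.0527), which missed it under TMM scaling (-0.62, adjusted p = 0.0565) and in edgeR (-0.63, adjusted p = 0.0571) too. *Cd47* missed it only in limma without trend and robust options (0.72, adjusted p = 0.211). *Thbs2* passed in DESeq2 (-0.57, adjusted p = 0.00541) and with no filter (-0.58, adjusted p = 0.0135), *Thbs4* in DESeq2 (-0.76, adjusted p = 0.00537) and *Cd36* in DESeq2 (0.47, adjusted p = 0.0400). The cause of these shifts was not tested. With a library left out the log2 fold change ranged from -0.48 to -0.35 for *Thbs1*, -0.77 to -0.40 for *Thbs2*, -0.78 to -0.47 for *Thbs3*, -1.07 to -0.50 for *Thbs4*, 0.69 to 0.74 for *Cd47*, 0.28 to 0.65 for *Cd36* and -0.032 to 0.10 for *Sirpa*. *Sirpa* turned to -0.038 under library totals, which moved the median of all genes to -0.09, and to -0.032 without control replicate 1. Of all calls 60.7% were lower, against 49.5% under TMM scaling, 48.5% in edgeR and 70.9% under library totals. Lists were more open to single libraries. Without control replicate 1 the median of the genes listed as other thrombospondin receptors was 0.03. Without GCE/GCE-labelled replicate 2 that of TGF-beta activation and targets was 0.05. The number of pools, 2 in each group, limits the precision of every value.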
